A study of Homo sapiens with 2 samples.

Results

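The genes described here encode the enzymes and carriers that take glucose to pyruvate and lactate and take pyruvate into the mitochondrial tricarboxylic acid (TCA) cycle. They were listed by name as members of these pathways, with earlier results of these data known, and all 55 are among the 25534 genes of the deposited table. The rule also asked for at least 20 counts in both libraries together, with no threshold on the fold. All 55 met it, as did 16669 genes of the table, which are called the examined genes below. RNA was sequenced from HN6, an established line of human tongue squamous cell carcinoma, the purpose being to learn what ZNF582, a zinc finger protein, does to gene activity in head and neck cancer. One library came from HN6 cells transfected with a ZNF582 overexpression plasmid in the presence of polybrene, and the other from HN6 cells labelled WT and control. Whether the control cells received an empty vector, and how long after transfection RNA was taken, is not stated by the labels. With 1 library per group there is no replicate check, so the values below compare these 2 libraries and carry no test of the condition.

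Glycolysis splits glucose into pyruvate in the cytosol, first spending ATP in a preparatory phase and then regaining it in a payoff phase. Pyruvate is either reduced to lactate and exported, or carried into mitochondria, where the pyruvate dehydrogenase complex turns it into acetyl-CoA for the TCA cycle. Pyruvate dehydrogenase kinases switch the complex off and its phosphatases switch it on. Many carcinoma cells send much of their pyruvate to lactate even with oxygen present, and several glycolytic genes are textbook targets of the hypoxia-inducible factor and of MYC.

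The ZNF582 library held 17792172 counts and the control library 14765244. ZNF582 itself had 277387 counts in ZNF582 cells and 14 in control cells, at a log2 fold of 14.12 (95% interval 13.37 to 14.99). All 10 squamous epithelial markers examined had counts, with summed FPKM of 291 in ZNF582 cells and 289.9 in control cells, although the basal keratin gene KRT14 had only 19 and 7 counts. Summed FPKM of the fibroblast markers was 1.29 and 2.22, of the immune markers 0.979 and 0.718, and of the endothelial markers 0.25 and 0.343, in ZNF582 and control cells. The fibroblast markers COL1A2, COL3A1 and DCN and the immune markers PTPRC, CD3E and LYZ had no row in the table. Within the squamous markers the median log2 fold was 0.50, with 6 intervals above 0 and 3 below: the keratin genes KRT17 (2780 counts in ZNF582 cells and 642 in control cells, 3.89-fold higher), KRT6A (2.13-fold higher) and KRT5 (1.83-fold higher) stood against CDH1, the E-cadherin gene, at -0.54. The part of these markers in the results below was not tested. In such bulk libraries, fewer cells of a type and less RNA per cell cannot be told apart.

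Promoter sequences of 4 members are shown because the results below set them apart: LDHA, PGK1 and PKM were at least 1.5-fold lower in ZNF582 cells, and TPI1, a neighbour in the same pathway, was nearly level. Each is the 250 bases before the first start listed for the gene by RefSeq on GRCh38.p14, written 5′ to 3′ on the gene's strand. These starts can lie downstream of the outermost start in other annotations. Capitals mark ACGTG, the core of the hypoxia response element, and CACGTG, the E-box bound by MYC and by the glucose-responsive factors of its family, on either strand. The LDHA window is chr11:18394313-18394562 on the plus strand, the PGK1 window chrX:78103998-78104247 on the plus strand, the PKM window chr15:72231191-72231440 on the minus strand and the TPI1 window chr12:6867281-6867530 on the plus strand.
LDHA: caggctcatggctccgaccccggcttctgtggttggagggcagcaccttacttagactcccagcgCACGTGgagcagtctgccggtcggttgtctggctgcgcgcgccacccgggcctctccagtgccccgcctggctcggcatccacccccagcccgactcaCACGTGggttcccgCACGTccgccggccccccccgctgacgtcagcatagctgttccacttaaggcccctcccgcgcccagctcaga
PGK1: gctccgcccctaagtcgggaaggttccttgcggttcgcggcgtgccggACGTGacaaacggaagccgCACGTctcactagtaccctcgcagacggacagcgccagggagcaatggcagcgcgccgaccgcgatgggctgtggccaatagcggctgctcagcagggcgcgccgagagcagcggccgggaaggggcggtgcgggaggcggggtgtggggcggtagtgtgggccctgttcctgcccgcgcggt
PKM: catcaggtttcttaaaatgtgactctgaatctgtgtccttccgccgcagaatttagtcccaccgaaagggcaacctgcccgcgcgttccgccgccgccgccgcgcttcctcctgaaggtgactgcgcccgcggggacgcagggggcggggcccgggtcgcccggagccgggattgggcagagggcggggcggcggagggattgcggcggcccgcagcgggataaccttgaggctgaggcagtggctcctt
TPI1: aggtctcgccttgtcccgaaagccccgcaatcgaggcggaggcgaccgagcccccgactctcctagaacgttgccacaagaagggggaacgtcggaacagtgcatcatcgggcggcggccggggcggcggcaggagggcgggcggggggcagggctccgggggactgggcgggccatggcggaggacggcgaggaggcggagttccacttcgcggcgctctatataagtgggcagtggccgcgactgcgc

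The LDHA window held 5 matches to ACGTG over both strands, 4 of which came from its CACGTG palindromes, each read once per strand. The PGK1 window held 2 matches, and the PKM and TPI1 windows held 0. RefSeq promoters were matched for 50 of the 55 genes. SLC2A3, PFKFB2, SLC16A1, PDP1 and OGDH had no entry. ACGTG was found in 14 of the 50 windows (28.0%), against 5101 of 27305 windows of all genes (18.7%). CACGTG was found in 4 of the 50 (8.0%), against 6.49% of all windows. Of the 9 matched genes that were at least 1.5-fold lower in ZNF582 cells, ENO2, GPI, PDK3, IDH1, LDHA and PGK1 held ACGTG (66.7%), and MPC2, IDH2 and PKM did not. Of the other 41 matched genes 8 held it (19.5%). CACGTG was found in 1 of the 9 (11.1%) and in 3 of the 41 (7.32%). The 9 genes were picked by their folds, and which genes pass depends on scaling. HK1, PFKM, PGAM1 and PCK2, which passed when counts were divided by library totals alone, did not hold ACGTG. PGK1 did not pass with DESeq2 size factors. A link between these letters and the folds was not tested. A match describes these letters in this window and not the binding of a factor.

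Most genes of the pathway were lower in ZNF582 cells, by amounts that were small for most. Of the 55 genes, 45 had a log2 fold below 0 (81.8%), against 50.5% of the examined genes. Their median log2 fold was -0.29, with quartiles at -0.49 and -0.04, against -0.01 over all examined genes, with quartiles at -0.33 and 0.31. The log2 fold is that of the ZNF582 library over the control library, with counts scaled by the library total and a TMM factor, and intervals are exact 95% intervals that cover counting error only. The interval lay below 0 in 35 genes, above 0 in PFKFB2 and ME1, and held 0 in 18. Among all examined genes it lay below 0 in 26.2% and above 0 in 27.6%. Intervals narrow with more counts. In the 12492 genes with at least 100 counts it lay below 0 in 3730 (29.9%) and above 0 in 4229.

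Few of these differences were large. Past 2-fold with an interval that excluded 1, a rule met downward by 5.02% and upward by 4.25% of the examined genes, 1 gene was lower (MPC2) and 0 were higher. Past 1.5-fold, a rule met downward by 10.9% and upward by 9.90% of the examined genes, 10 of the 55 were lower (18.2%) and 0 were higher. These were MPC2, ENO2, IDH2, GPI, PKM, PDK3, IDH1, PDP1, LDHA and PGK1. Among the 12492 genes with at least 100 counts, 9.55% met the 1.5-fold rule downward and 10.2% upward. The split depended on scaling: by TMM 47.5% of all 1.5-fold calls were higher, against 32.6% when counts were divided by totals alone, which also moved the median of all genes to -0.12.

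**Figure D1:**
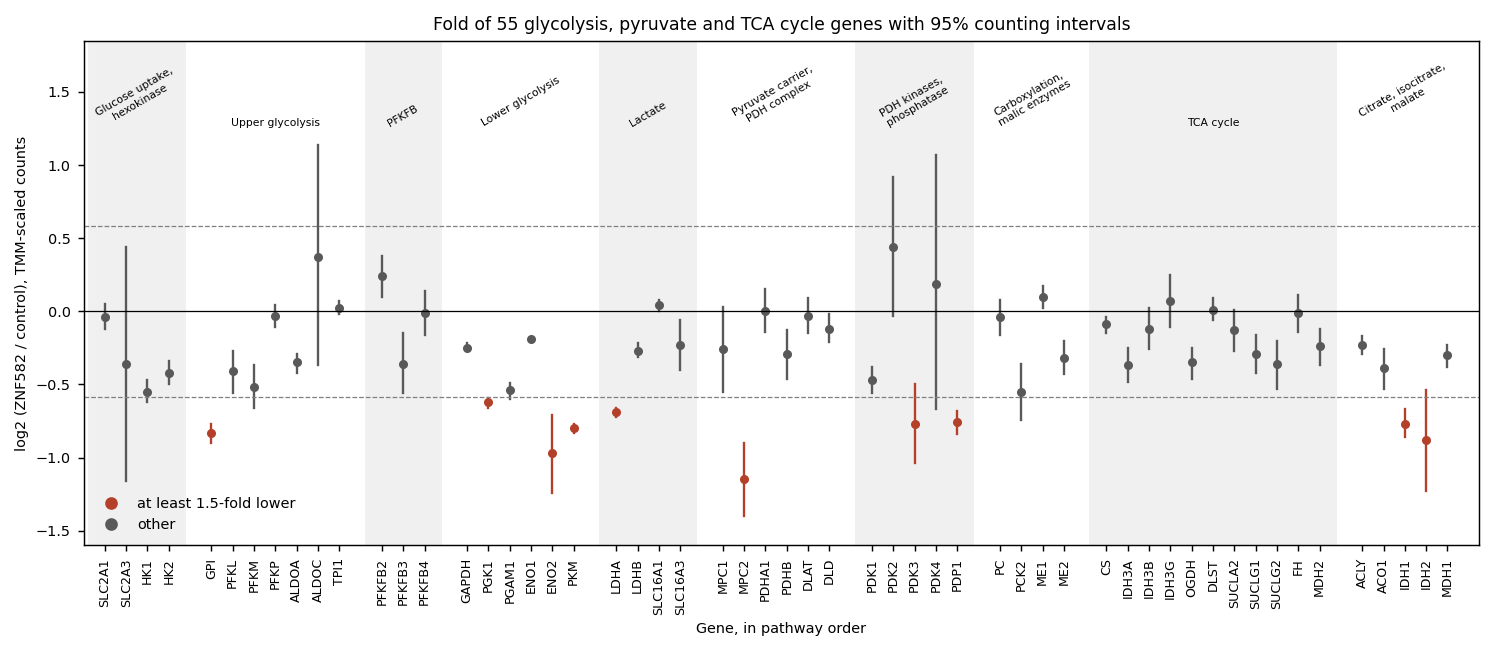
Log2 fold of the ZNF582 library over the control library (y axis, TMM-scaled counts) for the 55 genes in pathway order (x axis). Points are folds, bars are 95% counting intervals, shaded bands separate the steps and dashed lines mark 1.5-fold. The 10 genes in red lie past 1.5-fold downward, from -0.62 for PGK1 to -1.15 for MPC2, and no gene lies past 1.5-fold upward.

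**Figure D2:**
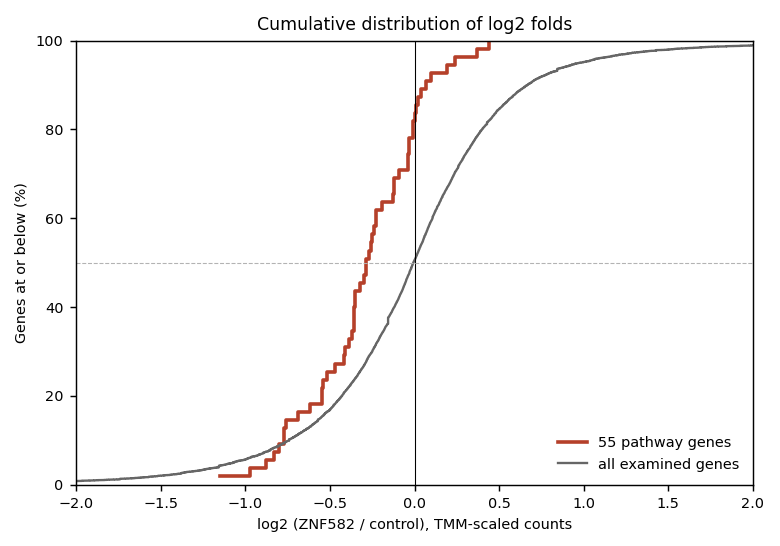
Cumulative share of genes (y axis, %) at or below each log2 fold of the ZNF582 library over the control library (x axis), for the 55 pathway genes in red and all 16669 examined genes in grey. The red line reaches 81.8% below 0, against 50.5% for the grey line, while the red line ends at 0.44 and the grey line runs on past 2.

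Because several glycolytic genes are among the most abundant messages of a cell, the 55 genes took a visible part of each library. They held 217681 of 17792172 counts in ZNF582 cells (1.22%, Clopper-Pearson interval 1.22 to 1.23) and 248322 of 14765244 in control cells (1.68%, 1.68 to 1.69). Shares of this kind use library totals without TMM factors, and the ZNF582 total includes the 277387 counts of ZNF582 itself. With TMM scaling the summed counts of the 55 genes were 1.27-fold lower in ZNF582 cells. The 21 genes of glucose entry, glycolysis and lactate accounted for 0.977% of counts in ZNF582 cells and 1.37% in control cells. The 17 genes of pyruvate entry and the TCA cycle accounted for 0.122% and 0.146%. Their median log2 folds were -0.36 for the 21 genes of glucose entry, glycolysis and lactate and -0.13 for the 17 genes of pyruvate entry and the TCA cycle. Past 1.5-fold lower were 5 of the 21 (23.8%) and 1 of the 17 (5.88%), against 10.9% of the examined genes. The 17 do not hold every mitochondrial gene of the 55. IDH2, PDK3 and PDP1, each past 1.5-fold lower, were placed in other steps.

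**Figure D3:**
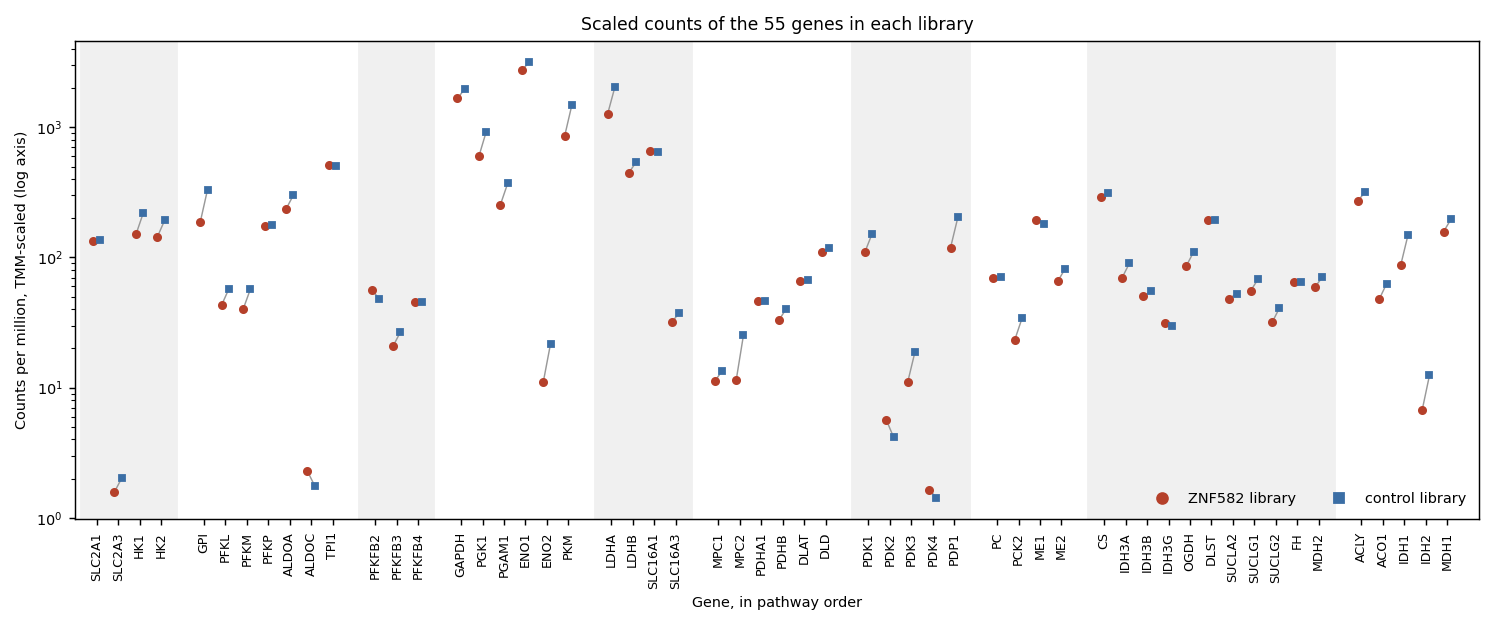
CPM (counts scaled to a fixed library size, with TMM factors) on a log axis (y axis) for each of the 55 genes in pathway order (x axis), with red circles for the ZNF582 library and blue squares for the control library. The abundant genes of the payoff phase and LDHA stand highest in both libraries, and LDHA lies at 1260 in ZNF582 cells and 2032 in control cells.

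Glucose entry was lower at the phosphorylation step and nearly level at the main transporter. SLC2A1, which encodes the transporter GLUT1, had 2271 counts in ZNF582 cells and 2092 in control cells, at a log2 fold of -0.04 (-0.12 to 0.05). The second transporter gene of the set, SLC2A3 (GLUT3), was barely counted, with 27 and 31 counts. HK1, the widely expressed hexokinase, had 2571 counts in ZNF582 cells and 3366 in control cells, at -0.55 (-0.62 to -0.47). HK2, the inducible hexokinase of many tumours, had 2472 and 2970 counts, at -0.42 (-0.50 to -0.34). Neither hexokinase passed 1.5-fold by TMM scaling, though HK1 did by total counts (-0.66).

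In the preparatory phase the genes did not move together. GPI, which turns glucose-6-phosphate into fructose-6-phosphate and lies on chromosome 19 at 34359480 to 34402156, had 3194 counts in ZNF582 cells and 5098 in control cells. It was 1.78-fold lower, at a log2 fold of -0.83 (-0.90 to -0.77). TPI1, which interconverts the triose phosphates, had 8726 counts in ZNF582 cells and 7698 in control cells, at 0.02 (-0.02 to 0.07). The count ratio of GPI to TPI1, which does not depend on scaling, was 0.366 in ZNF582 cells and 0.662 in control cells, a log2 difference of -0.86 (-0.93 to -0.78). TPI1 also has 4 listed pseudogenes, whose counts came to 11.0% of its own in ZNF582 cells and 13.5% in control cells, so its level is uncertain by that much. GPI shares 542 exonic bases with AC092073.1, which had 23 and 5 counts.

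The 3 subunit genes of phosphofructokinase, the committed step, differed among themselves. PFKP, the platelet-type subunit and the most counted, had 2965 counts in ZNF582 cells and 2723 in control cells, at -0.03 (-0.11 to 0.04). PFKM, the muscle type, had 684 and 877 counts, at -0.52 (-0.66 to -0.37). PFKM shares 628 exonic bases, 8.58% of its exonic length, with SENP1 on the opposite strand, which had 2038 counts in ZNF582 cells and 1383 in control cells. PFKL, the liver type, had 740 and 885 counts, at -0.41 (-0.56 to -0.27). PFKP thus made up 67.6% of the phosphofructokinase counts in ZNF582 cells and 60.7% in control cells, or 80.7% and 75.6% of the summed FPKM. The ratio of PFKM to PFKP had a log2 difference of -0.48 (-0.65 to -0.32), and that of PFKL to PFKP had a log2 difference of -0.38 (-0.54 to -0.22).

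Aldolase counts were almost wholly ALDOA, with 4021 counts in ZNF582 cells and 4610 in control cells, at -0.35 (-0.42 to -0.29). ALDOC, the brain-type aldolase, had 39 and 27 counts, too few to set its fold apart from 0. The PFKFB genes encode the bifunctional enzymes that make and degrade fructose-2,6-bisphosphate, the activator of phosphofructokinase. PFKFB2 was one of the 2 genes with an interval above 0, with 970 counts in ZNF582 cells and 739 in control cells, at 0.24 (0.10 to 0.38). By total counts PFKFB2 was at 0.12. It shares 315 exonic bases with YOD1 on the opposite strand, which had 2791 counts in ZNF582 cells and 1489 in control cells. PFKFB3, the form with the strongest kinase bias, had 358 and 411 counts, at -0.36 (-0.56 to -0.15). PFKFB4 had 773 and 700 counts and was level at -0.01 (-0.16 to 0.14).

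In the payoff phase every gene was lower beyond counting error. All 6 intervals lay below 0, the median log2 fold was -0.58, and PKM, PGK1 and ENO2 passed 1.5-fold. PKM, whose gene for pyruvate kinase lies on the minus strand of chromosome 15 at 72199029 to 72231822, had 14713 counts in ZNF582 cells and 22950 in control cells. It was 1.74-fold lower, at -0.80 (-0.83 to -0.77). PGK1, the first ATP-making enzyme of glycolysis, on chromosome X at 78065188 to 78129296, had 10266 counts in ZNF582 cells and 14194 in control cells. It was 1.54-fold lower, at -0.62 (-0.66 to -0.59), close to the 1.5-fold line, and with DESeq2 size factors its log2 fold of -0.58 no longer passed.

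The most abundant genes of this phase differed least. ENO1, the main enolase and the highest of the 55 by FPKM, had 47085 counts in ZNF582 cells and 48347 in control cells, or 523 and 647 FPKM, at -0.19 (-0.21 to -0.18). GAPDH, often used as a reference gene, had 28514 and 30332 counts, or 232 and 297 FPKM, at -0.25 (-0.27 to -0.22). PGAM1, the phosphoglycerate mutase, had 4346 and 5684 counts, at -0.54 (-0.60 to -0.49). Its near copy PGAM4, which can share reads with it, had 221 counts in ZNF582 cells and 312 in control cells, at -0.65. ENO2, the neuronal enolase, on chromosome 12 at 6913745 to 6923698, had 189 counts in ZNF582 cells and 333 in control cells, 1.96-fold lower at -0.97 (-1.24 to -0.71).

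Set against each other within a library, these neighbours in the pathway were unequal. The count ratio of PKM to ENO1 was 0.312 in ZNF582 cells and 0.475 in control cells, a log2 difference of -0.60 (-0.64 to -0.57). That of PGK1 to GAPDH was 0.360 and 0.468, a log2 difference of -0.38 (-0.42 to -0.33). GAPDH to TPI1, which follow each other in the pathway, had a log2 difference of -0.27 (-0.32 to -0.22). None of these ratios depends on how the libraries are scaled.

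At the lactate step the balance of the 2 dehydrogenase subunits differed between the libraries. LDHA, the subunit of the muscle-type enzyme that favours lactate production, lies on chromosome 11 at 18394388 to 18408425 and had 21554 counts in ZNF582 cells and 31200 in control cells. It was 1.61-fold lower, at -0.69 (-0.72 to -0.66). LDHB, the heart-type subunit, had 7694 counts in ZNF582 cells and 8319 in control cells, at -0.27 (-0.31 to -0.22). The LDHA to LDHB count ratio was 2.80 in ZNF582 cells and 3.75 in control cells, a log2 difference of -0.42 (-0.47 to -0.37).

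How much of the lactate dehydrogenase message is LDHA depended on the length used. By deposited FPKM, LDHA made up 43.3% of the 2 genes' sum in ZNF582 cells and 50.5% in control cells. Per kilobase of the principal transcript, a setting chosen after the data were seen, it made up 64.1% and 70.5%, and of the counts 73.7% and 78.9%. The deposited FPKM of LDHA rests on a length of 16016 bases, against 2416 bases for its principal transcript. The share was lower in ZNF582 cells by all 3 measures.

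Of the carriers that export lactate, SLC16A1 was nearly level and SLC16A3 was lower. SLC16A1, which encodes the monocarboxylate transporter MCT1, had 11267 counts in ZNF582 cells and 9844 in control cells, at 0.04 by TMM, and at -0.07 by total counts. SLC16A3 (MCT4), the carrier typical of lactate-exporting cells, had 546 and 574 counts, at -0.23 (-0.40 to -0.06). LDHA counts were 1.91 times those of SLC16A1 in ZNF582 cells and 3.17 times in control cells, a log2 difference of -0.73 (-0.77 to -0.68).

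Entry of pyruvate into mitochondria held the largest difference of the 55 genes. MPC2, a subunit of the mitochondrial pyruvate carrier, lies on the minus strand of chromosome 1 at 167916729 to 167937040. It had 195 counts in ZNF582 cells and 388 in control cells, or 3.55 and 8.50 FPKM. It was 2.22-fold lower (1.86 to 2.65), at a log2 fold of -1.15 (-1.40 to -0.90). Its partner MPC1, the other subunit of the working carrier, had 191 counts in ZNF582 cells and 205 in control cells, at -0.26 with an interval that held 0 (-0.55 to 0.03). The MPC2 to MPC1 count ratio was 1.02 in ZNF582 cells and 1.89 in control cells, a log2 difference of -0.89 (-1.28 to -0.50).

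MPC2 shares 575 exonic bases, 22.5% of its exonic length, with DCAF6 on the opposite strand. DCAF6 had 989 counts in ZNF582 cells and 892 in control cells. The sources used here do not say whether counting used strand. Reads from the shared stretch therefore cannot be told apart.

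Of the 4 catalytic genes of the pyruvate dehydrogenase complex among the 55, PDHA1 and DLAT were level within counting error, DLD was slightly lower and PDHB lower. PDHA1, the catalytic alpha subunit, had 791 counts in ZNF582 cells and 708 in control cells, at 0.00 (-0.14 to 0.15). DLAT, the acetyltransferase core, was at -0.03 (-0.15 to 0.09), and DLD, the dehydrogenase shared with other complexes, at -0.12 (-0.21 to -0.02). PDHB, the beta subunit, had 566 and 622 counts, at -0.29 (-0.46 to -0.13).

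Of the 5 genes among the 55 that set the activity of the complex, PDP1, PDK3 and PDK1 were lower. PDP1, a phosphatase that switches the complex on, had 2042 counts in ZNF582 cells and 3109 in control cells, 1.70-fold lower at -0.76 (-0.84 to -0.68). PDK3, a kinase that switches it off, on chromosome X at 24465221 to 24539837, had 188 and 288 counts, 1.71-fold lower at -0.77 (-1.04 to -0.50). PDK1, the most counted kinase, had 1876 counts in ZNF582 cells and 2330 in control cells, at -0.47 (-0.56 to -0.38). PDK2 and PDK4 were low, with 97 and 28 counts in ZNF582 cells and 64 and 22 in control cells, and both intervals held 0. Relative to PDK1, PDK2 was nevertheless higher, with a log2 difference of 0.91 (0.43 to 1.40). The count ratio of PDP1 to PDHA1 was 2.58 in ZNF582 cells and 4.39 in control cells, a log2 difference of -0.77 (-0.94 to -0.60).

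Other exits and entries at pyruvate gave mixed values. PC, the carboxylase that makes oxaloacetate from pyruvate, had 1181 counts in ZNF582 cells and 1090 in control cells, at -0.04 (-0.16 to 0.08). PCK2, the mitochondrial carboxykinase that makes phosphoenolpyruvate, had 401 and 526 counts, at -0.55 (-0.74 to -0.36). ME1, the cytosolic malic enzyme that makes pyruvate and NADPH, had 3335 and 2798 counts, at 0.10 (0.02 to 0.17) by TMM but at -0.02 by total counts. ME2, the mitochondrial malic enzyme, had 1123 and 1254 counts, at -0.32 (-0.43 to -0.20). The ME2 to ME1 count ratio was 0.337 in ZNF582 cells and 0.448 in control cells, a log2 difference of -0.41 (-0.55 to -0.27).

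The 11 genes of the TCA cycle lay in a narrow range, from -0.37 to 0.07, with a median of -0.13 and 0 past 1.5-fold in either direction. CS, the citrate synthase, was the most counted, with 5035 counts in ZNF582 cells and 4817 in control cells, at -0.09 (-0.15 to -0.04). FH, the fumarase and the highest of the step by FPKM, had 1108 and 1003 counts, or 25.7 and 28.0 FPKM, at -0.01 (-0.14 to 0.11). DLST, the core of the oxoglutarate dehydrogenase complex, was at 0.01 (-0.06 to 0.09), while OGDH, its first subunit, had 1477 counts in ZNF582 cells and 1693 in control cells, at -0.35 (-0.46 to -0.25). MDH2, the mitochondrial malate dehydrogenase, was at -0.24 (-0.37 to -0.12).

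Subunits of 1 enzyme in the cycle were not always alike. IDH3A, the catalytic subunit of NAD-dependent isocitrate dehydrogenase, had 1194 counts in ZNF582 cells and 1380 in control cells, at -0.37 (-0.48 to -0.25). Its regulatory partners IDH3B and IDH3G were at -0.12 and 0.07, both with intervals that held 0. IDH3G shares 278 exonic bases, 10.2% of its exonic length, with SSR4 on the opposite strand, which had 1119 counts in ZNF582 cells and 716 in control cells. Of the succinyl-CoA ligase genes, SUCLG1 and SUCLG2 were at -0.29 and -0.36 with intervals below 0, and SUCLA2 was at -0.13 with an interval that held 0.

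ACLY, ACO1, IDH1, IDH2 and MDH1, which handle citrate, isocitrate and malate beside the cycle, were each lower beyond counting error. These 5 genes had a median of -0.39, all 5 intervals lay below 0, and IDH1 and IDH2 passed 1.5-fold. IDH1, the cytosolic NADP-dependent isocitrate dehydrogenase, on the minus strand of chromosome 2 at 208236227 to 208266074, had 1496 counts in ZNF582 cells and 2288 in control cells. It was 1.70-fold lower, at -0.77 (-0.86 to -0.67). IDH2, the mitochondrial NADP-dependent form, on the minus strand of chromosome 15 at 90083045 to 90102504, had 115 and 190 counts, 1.84-fold lower at -0.88 (-1.23 to -0.54). ACLY, which makes cytosolic acetyl-CoA from citrate, had 4651 counts in ZNF582 cells and 4895 in control cells, at -0.23 (-0.29 to -0.17). ACO1, the cytosolic aconitase, was at -0.39 (-0.53 to -0.26), and MDH1, the cytosolic malate dehydrogenase, at -0.30 (-0.38 to -0.23).

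In all, 19 pairs of isozymes or subunits of 1 reaction were compared by their count ratios, which need no scaling. Of these, 13 had an interval below 0, PFKFB2 to PFKFB4 and PDK2 to PDK1 had one above 0, and 4 held 0. ENO2 to ENO1 had a log2 difference of -0.78 (-1.04 to -0.52). HK1 to HK2 differed little, at -0.12 (-0.23 to -0.02). IDH2 to IDH1 (-0.11, -0.47 to 0.24) and MDH1 to MDH2 (-0.06, -0.21 to 0.09) held 0. The sign depends on which gene is named first.

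**Figure D4:**
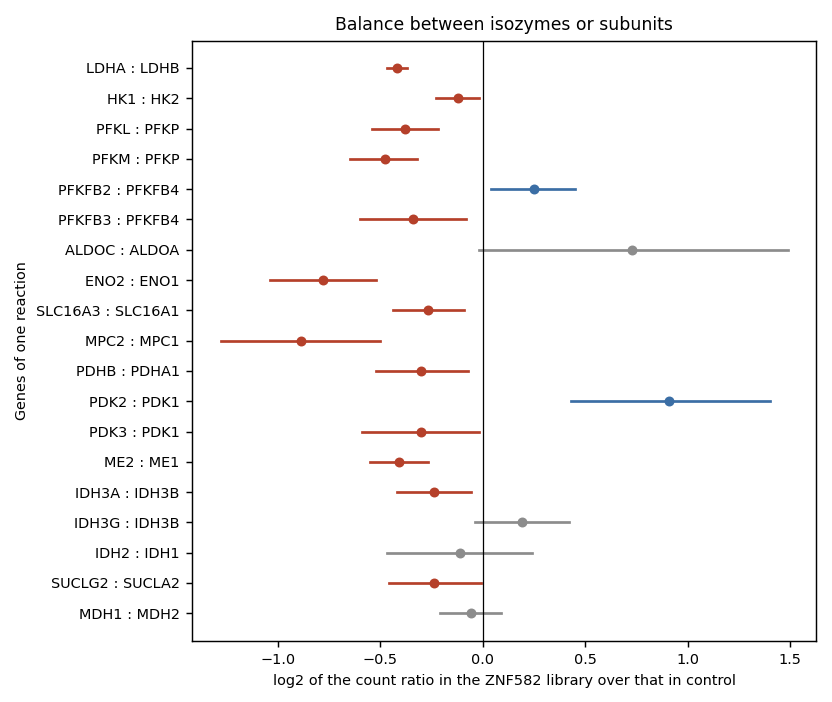
Log2 of the count ratio of each of 19 gene pairs (y axis, first gene over second) in ZNF582 cells over that in control cells (x axis). Points are values, bars are exact 95% counting intervals, and red, blue and grey mark intervals below, above and holding 0. MPC2 to MPC1 lies lowest at -0.89 and PDK2 to PDK1 highest at 0.91.

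Outside the 55, the other glycolytic genes were of mixed direction, and most of the other pyruvate and TCA genes were below 0. Of 26 other glycolytic, gluconeogenic and related names, 12 were examined, with a median of 0.08, 6 intervals above 0 and 4 below. Past 2-fold upward were 3 of the 12, a rule met by 4.25% of the examined genes. Past 1.5-fold downward was 1 (PGAM4), a rule met by 10.9% of the examined genes. ENO3, the muscle enolase, had 83 counts in ZNF582 cells and 24 in control cells, 3.10-fold higher (1.95 to 5.11), with exonic overlap. HKDC1 with 47 and 19 counts and LDHC with 16 and 5 were the other 2, both too thinly counted for the naming rule. Of 13 other pyruvate and TCA names 10 were examined, with a median of -0.19; 0 passed 2-fold and 1 (SLC16A7, 36 and 55 counts) was at least 1.5-fold lower. Of these 10, 9 were below 0, with 6 intervals below 0 and 1 above. They include PDHX, another component of the pyruvate dehydrogenase complex, at -0.23 (-0.36 to -0.11), its second phosphatase PDP2, at -0.15 (-0.29 to -0.01), and the phosphatase regulatory subunit PDPR, at -0.50 (-0.62 to -0.38). PDHX and PDPR have exonic overlap.

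The pentose phosphate branch, which takes glucose-6-phosphate to NADPH and ribose, had 8 of 9 genes examined and a median of -0.10. RPE, the epimerase, was at least 1.5-fold lower with 1245 counts in ZNF582 cells and 1873 in control cells, at -0.75 (-0.85 to -0.64), with exonic overlap, and 0 genes were higher by that rule.

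Among 13 listed regulators of these genes or of glucose uptake, 11 were examined, of which 3 were past 2-fold upward and 0 past it downward. Of all examined genes 4.25% were past 2-fold upward and 5.02% downward. TXNIP, which restrains glucose uptake, had 7986 counts in ZNF582 cells and 496 in control cells, at 3.85 (3.72 to 3.99), and its relative ARRDC4 had 1389 and 141 counts, at 3.14 (2.89 to 3.40). HIF1A, the oxygen-regulated subunit of the hypoxia-inducible factor, had 7667 counts in ZNF582 cells and 3177 in control cells, 2.17-fold higher (2.08 to 2.26), with exonic overlap. Its partner ARNT was at 0.00 (-0.14 to 0.15) and MYC at -0.02 (-0.31 to 0.27). MLX, the partner of the glucose-responsive factors, had 449 and 688 counts, at -0.77 (-0.95 to -0.60), also with exonic overlap.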

How the data were processed

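RNA of 1 library per group was sequenced. The submitters' processing notes name HISAT2 2.0.4, StringTie 1.3.0 and GRCh38. The counting program and the annotation release are left unnamed there. The table holds 2 kinds of value for each gene and library, counts and FPKM, both made by the authors, per the file headers. The deposited counts are whole numbers but are treated as estimated counts, since their origin is not stated, although the design had assumed plain counts. 1 record broken over 2 lines was rejoined. No listed gene had fewer than 2 counts over the libraries. In 43 of the 55 genes the length behind the deposited FPKM equalled the summed length of all distinct exons within 2 bases, so that overlapping exons count repeatedly, and in 6 genes it exceeded the whole gene span. FPKM levels between genes therefore carry that length, and count ratios do not.

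Counts were scaled by library total and TMM factors from edgeR 4.0.16 in R 4.3.3 (0.962 for the ZNF582 library, 1.04 for the control library). Genes under 20 counts over both libraries were left out. Folds carry exact 95% Clopper-Pearson intervals conditional on the sum of both counts, and pair ratios carry exact conditional odds-ratio intervals. With 1 library per group, intervals cover counting error only. Reads carry no molecular identifiers, so duplicate reads cannot be told apart and the intervals may be too narrow even for counting error. No p-value was computed. Alternatives were total counts, DESeq2 1.42.0 size factors, other filters, FPKM with a pseudocount, and leaving out ZNF582 or overlapping genes.

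Of the listed identifiers 25271 were found in GENCODE 29, and exonic overlap with another listed gene was marked in 27 of the 55 genes. Values were to be given for members past 1.5-fold, the highest FPKM of each step, isozyme pairs, and up to 4 genes per other list past 2-fold with at least 100 counts; other genes named were chosen after their values were seen. Members and lists were chosen with earlier results of these data known. Scripts were tested on simulated data. Other tools were matplotlib 3.10.9, pandas 2.3.3, scipy 1.17.1 and numpy 2.4.6 in Python 3.11.15. A few genes of the other lists are not reported here.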

Additional observations from a re-analysis of the deposited data

How the results depend on the processing

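No paired analysis was possible because each group had 1 library. Across the settings tried the pathway genes (55, or 52 from at least 100 counts and 28 without overlapping genes) had a median log2 fold below that of all genes by 0.26 to 0.34, and 0 of them were past 1.5-fold higher. The number past 1.5-fold lower was 10 with TMM, without ZNF582, without a filter and from at least 100 counts, 9 with DESeq2 size factors, 12 with FPKM plus 1, 14 with FPKM plus 0.1 and with total counts, and 7 of 28 without overlapping genes. HK1, PFKM, PGAM1 and PCK2 passed with total counts, and PGK1 did not pass with DESeq2 size factors. Past 2-fold lower were 2 genes (MPC2 and ENO2) with total counts, 2 with FPKM plus 0.1, and 0 without overlapping genes, which leaves out MPC2 itself.

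Step medians moved as follows. With total counts the preparatory phase was at -0.47, the payoff phase at -0.70 and lactate at -0.36. With FPKM plus 1 the payoff phase was at -0.67. With FPKM plus 0.1 the preparatory phase was at -0.46 and the payoff phase at -0.70. Without overlapping genes the preparatory phase was at -0.02, the PFKFB genes at -0.36, the payoff phase at -0.80, lactate at -0.48, the pyruvate dehydrogenase regulators at -0.76, the carboxylation and malic enzymes at -0.32 and the citrate and isocitrate enzymes at -0.58, each over fewer genes. Genes near 0 changed sign with scaling, and 39 to 51 of the 55 were below 0 over the settings with all 55. Depth limits the genes with few counts, such as SLC2A3, ALDOC, PDK2 and PDK4.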

Other observations

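Genes that link the TCA cycle to glutamine and to the cytosol were of mixed direction. Of 14 shuttle and glutamine genes, all examined, 10 had an interval below 0 and 3 above 0, against 26.2% and 27.6% of the examined genes. Their median log2 fold was -0.31. Past 1.5-fold, 2 were lower and 0 higher, against 10.9% and 9.90% of the examined genes. GPT2, the mitochondrial alanine transaminase, had 442 counts in ZNF582 cells and 646 in control cells, at -0.70 (-0.88 to -0.53), and SLC25A10, the dicarboxylate carrier, had 285 and 389, at -0.61 (-0.83 to -0.38). GOT1, the cytosolic aspartate transaminase, had 1901 and 1283 counts, at 0.41 (0.31 to 0.51), with exonic overlap. The mitochondrial aspartate-glutamate carriers SLC25A12 and SLC25A13 were at -0.43 and -0.44, both with intervals below 0. These genes were named after their values were seen.

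Of 11 other sugar transporter names 7 were examined. SLC2A12 had 83 counts in ZNF582 cells and 182 in control cells, 2.44-fold lower (1.88 to 3.21), with exonic overlap. SLC2A13, a myo-inositol transporter of the same family, had 165 and 322 counts, 2.18-fold lower (1.80 to 2.64). Of the pyruvate and TCA genes outside the 55, SDHD, a membrane anchor of succinate dehydrogenase, was at -0.52 (-0.66 to -0.38), with exonic overlap.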
